A study of Homo sapiens with 5 samples.

Results

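The comparison described here set 2 HEK293T cell lines that lack CFIm59, the product of CPSF7, against unedited HEK293T cells. These were 3 of the 5 poly(A) site libraries of the series: 1 library labelled wild type control and 1 library from each of CFIm59 knockout lines 1 and 2. The other 2 libraries came from CFIm68 (CPSF6) knockout lines and entered the fits for the spread and for the read minimums that decided which genes and sites were tested. HEK293T is a human embryonic kidney line, and all knockout lines were derived from it with CRISPR/Cas9. The sources used here do not say whether each line grew from 1 clone or which guides were used. Members were all poly(A) sites of all genes, each site taken at its first listing in the count table. The series measured where mRNAs end, by sequencing from an oligo(dT) primer, in cells missing either large subunit of CFIm.

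Cleavage factor Im (CFIm) is a complex that joins the 3′ end processing machinery. Its small subunit CFIm25, the product of NUDT21, binds UGUA in the nascent RNA, and its large subunit is either CFIm68 or CFIm59, both with domains rich in arginine and serine. Most human genes carry several poly(A) sites. Where the choice lies within the last exon, an upstream site gives a shorter 3′ untranslated region and a downstream site a longer one. A site used within an intron ends the transcript before its last exon.

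The control held 2924266 reads, and CFIm59 knockout lines 1 and 2 held 1673687 and 2585923, over 205237 sites with reads among 272248 distinct sites in the table. Nuclear reads lay at intron sites in 9.22% of cases in the control and in 9.88% and 10.8% in the knockout lines, and at upstream exon sites in 1.26%, 1.32% and 1.24%. With 1 control library, its spread was assumed to equal that among the knockout lines, and p-values measure the spread between cell lines of 1 genotype.

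The targeted gene and its partners were read first. CPSF7 stood at 59.8 CPM (counts per 1000000 reads of the library, after TMM scaling) in the control and at 68.4 and 55.5 CPM in knockout lines 1 and 2. The lines lay on either side of the control (log2 0.04, SE 0.28, adjusted p = 0.947). Its most upstream tested last exon site took 82.4% of CPSF7 reads in the control, against 78.1% and 90.3% in the lines. Reads at the 3′ end of CPSF7 do not test an edit elsewhere in the gene, so they neither check nor contradict the labels. CPSF6, which encodes CFIm68, stood at 120 CPM against 141 and 142 CPM (adjusted p = 0.575). NUDT21 stood at 120 CPM against 81.6 and 67.9 CPM, below the control in both lines, without passing the test (log2 -0.69, SE 0.25, adjusted p = 0.0583). It passed with the control and CFIm59 lines alone (adjusted p = 0.0300), without CFIm68 knockout line 1 or 2 (0.0314 and 0.0305) and with no filter beyond 1 read (0.0429), and adjusted p was 0.0565 to 0.324 under the other alternatives. Within NUDT21, the middle last exon site at position 56466334 of chromosome 16 (hg19) fell from 10.7% of the gene's reads to 2.94% and 3.05% (adjusted p = 0.0425). That call did not hold when either CFIm59 knockout line was left out.

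Site use moved away from upstream sites of last exons and toward downstream ones. Use of a site is its share of all reads of its gene, and each site was tested against the rest of its gene. Among 20794 tested sites of 8156 genes, 328 gained share (1.58% of those tested) and 507 lost share (2.44%) at an adjusted p under 0.05, by edgeR's quasi-likelihood test. The calls fell in 619 genes, of which 434 had 1 called site, 163 had 2 and 22 had 3 or more. In genes with 2 tested sites, a gain at a site and a loss at its partner are largely the same reads counted from either side.

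The direction depended on where a site lay among the tested last exon sites of its gene. Last exon is the class given with the counts, and whether all such sites of a gene share an exon was not checked. Of the 5277 most upstream tested sites, 255 lost share (4.83%) and 24 gained it (0.455%). Of the 5277 most downstream ones, 204 gained share (3.87%) and 33 lost it (0.625%). Middle sites, 4419 in all, lost share in 98 cases (2.22%) and gained it in 43 (0.973%). Last exon sites with no other tested last exon site in their gene numbered 2552, with 15 gained (0.588%) and 32 lost (1.25%). Over all 17525 last exon sites, 286 gained (1.63%) and 418 lost (2.39%), with a median change of 18.6 percentage points where gained and -17.8 where lost. Without regard to any test, the share of the most upstream site was lower than in the control in both lines in 56.9% of cases and higher in both in 19.3%, with both lines set against the same control library. The most downstream site was higher in both lines in 49.9% and lower in both in 24.2%.

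**Figure D1:**
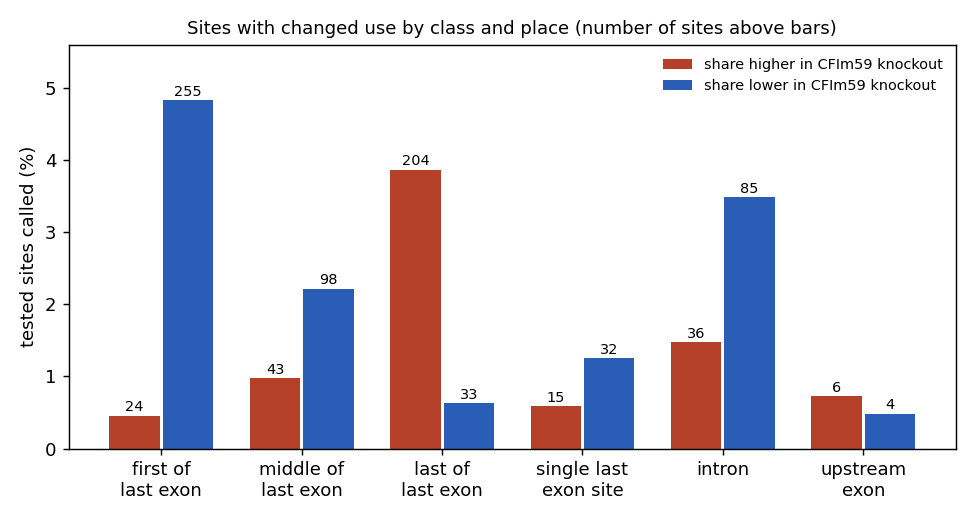
Percent of tested poly(A) sites whose share of gene reads was higher or lower in the CFIm59 knockout lines than in the control (y axis). The x axis gives the class and the place among the last exon sites of a gene, with the number of sites above each bar. Losses lead at the most upstream last exon sites (255 against 24) and gains at the most downstream ones (204 against 33).

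Most lost sites had a lower level as well as a lower share, and most gained sites a higher level. Of the 286 gained last exon sites, 257 had a higher CPM in both lines, and of the 418 lost ones, 409 had a lower CPM in both. In 147 genes a last exon site was gained and another lost, and the gained site lay downstream in 124 of them and upstream in 23. The number of calls depended strongly on the tool: with DESeq2, 6 last exon sites were gained and 5 lost, and with diffSpliceDGE, 39 and 61. Leaving out CFIm59 knockout line 1 left 61 and 87, leaving out line 2 left 87 and 125, and leaving out CFIm68 knockout line 2 gave 486 and 661. The median log2 change of the most upstream sites stayed between -0.51 and -0.25 under every setting run and that of the most downstream ones between 0.10 and 0.28.

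Individual genes show the shift. RXRA, the retinoid X receptor alpha, had 26.1% of its reads at its most upstream tested last exon site and 2.59% and 2.73% in the lines. Its downstream site at position 137332431 of chromosome 9 rose from 53.6% (interval 42.0 to 64.9) to 92.2% and 93.6% (log2 3.49, SE 0.57, adjusted p = 5.94e-06). These RXRA shares rest on 69, 116 and 110 reads. TSC1, a brake on mTOR complex 1 together with TSC2, gave 31.6% of its reads to its most downstream tested site in the control, against 67.5% and 65.9% in the lines (adjusted p = 0.00945). PLAA, which takes part in ubiquitin-dependent turnover, lost its upstream site, from 59.8% to 16.0% and 18.1% (adjusted p = 3.60e-05), and gained its downstream one, from 22.8% to 52.0% and 54.2%. The chromosome 7 gene listed as NAA38, LSM8 in current RefSeq naming and part of the LSM ring that binds U6 snRNA, lost its most upstream tested site from 71.2% to 33.0% and 31.3% (adjusted p = 9.39e-05).

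Of the last exon sites described, those of SGSM3 made the largest move in percentage points, and they ran the other way. Its upstream site took 2 of 40 reads in the control and 46 of 55 and 99 of 122 reads in the lines, or 5.00% against 83.6% and 81.2% (adjusted p = 6.08e-10). The 2 tested SGSM3 sites lie at positions 40806107 and 40806288 of chromosome 22. MGEA5, the enzyme that removes O-GlcNAc from proteins, also moved upstream: its most downstream site fell from 64.8% to 39.8% and 34.4% (adjusted p = 0.000464), while an upstream exon site rose from 5.42% to 13.8% and 14.5% (adjusted p = 0.00683). In abundant transcripts, RPL28 and RPL31, ribosomal proteins of the large subunit, gained at a main site that already held 95.8% and 96.7% of control reads, and lost minor downstream sites.

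**Figure D2:**
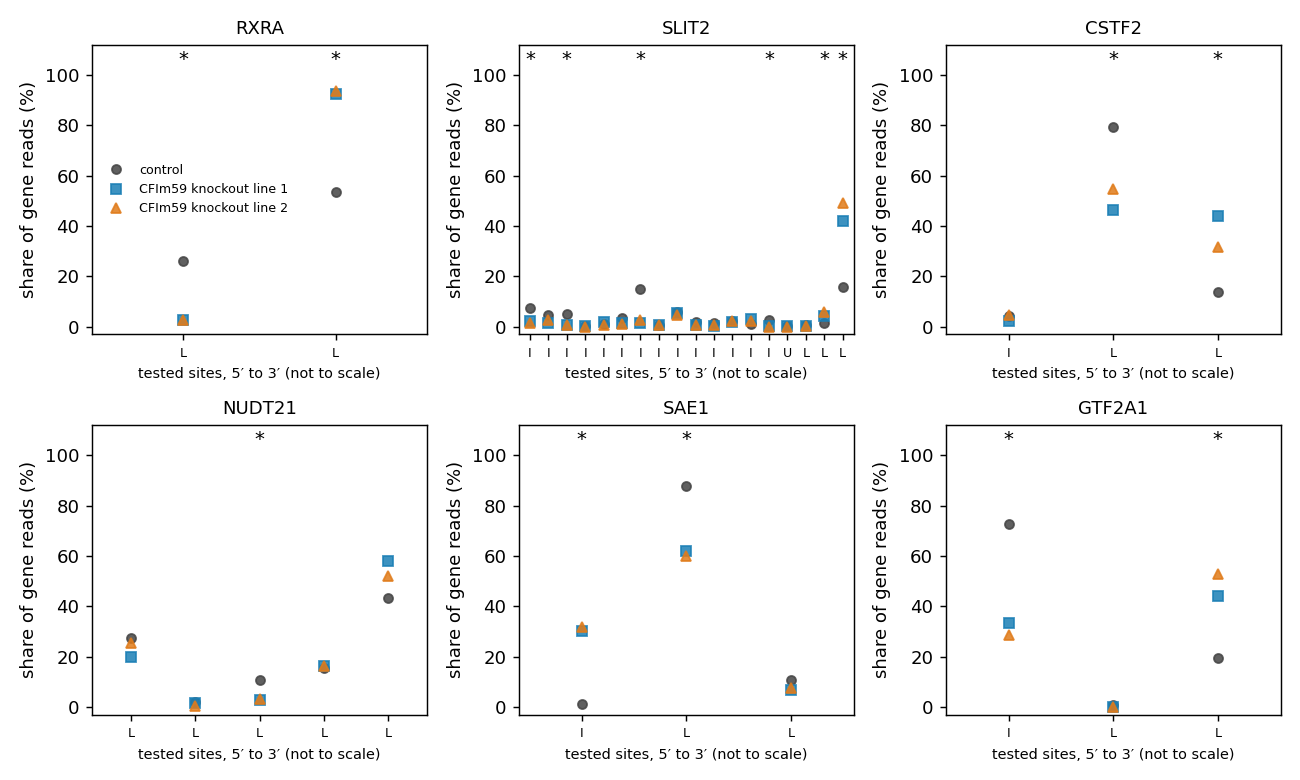
Share of a gene's reads at each tested poly(A) site (y axis, percent) for 6 genes, with sites in transcript order on the x axis (I intron, U upstream exon, L last exon; spacing not to scale). Points are the control and CFIm59 knockout lines 1 and 2, and a star marks sites with adjusted p under 0.05; in RXRA and CSTF2 the upstream last exon site is lower in both lines, whereas SAE1 gained an intron site and GTF2A1 lost one.

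Middle sites, which have tested last exon sites on either side, were lost more often than gained. PPP6C, the catalytic subunit of protein phosphatase 6, had its main middle site fall from 72.7% to 42.9% and 45.6% (adjusted p = 0.00327), and another middle site further downstream rose from 7.31% to 24.4% and 19.8%. SGCB, which encodes beta-sarcoglycan, lost a middle site from 48.8% to 16.0% and 17.5% (adjusted p = 0.00474). LINGO1 lost a middle site, from 34 of 68 reads to 14.3% and 16.7% of reads (adjusted p = 0.00372). In the gaining direction, CSNK1E, casein kinase 1 epsilon, raised a middle site from 19.4% to 43.2% and 46.2% (adjusted p = 0.000533), and METTL21A raised one from 8.82% to 30.2% and 37.5% (adjusted p = 0.0202).

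The read-weighted mean cleavage position over all last exon sites moved downstream in more genes than upstream. It was measured from the most upstream last exon site with a read, in 8180 genes, and no test was run on it. In 2577 genes (31.5%) both lines lay downstream of the control and their mean differed by 100 nt or more, and in 650 genes (7.95%) both lay upstream by that much. The median difference was 24.99 nt, with 25.1 nt in line 1 and 24.9 nt in line 2. It grew with the number of sites, from 1.43 nt in genes with 2 to 3 last exon sites to 25.1 nt with 4 to 6 and 129 nt with 7 or more. Over all genes, the median absolute difference between the lines was 59.2 nt, against 78.7 nt between their mean and the control. The spread between lines also grew with the number of sites, at 15.6, 62.3 and 135 nt in the same groups. The median absolute difference between their mean and the control was 18.9, 78.6 and 210 nt in those groups. For many single genes the shift was thus not clear of the spread between lines.

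**Figure D3:**
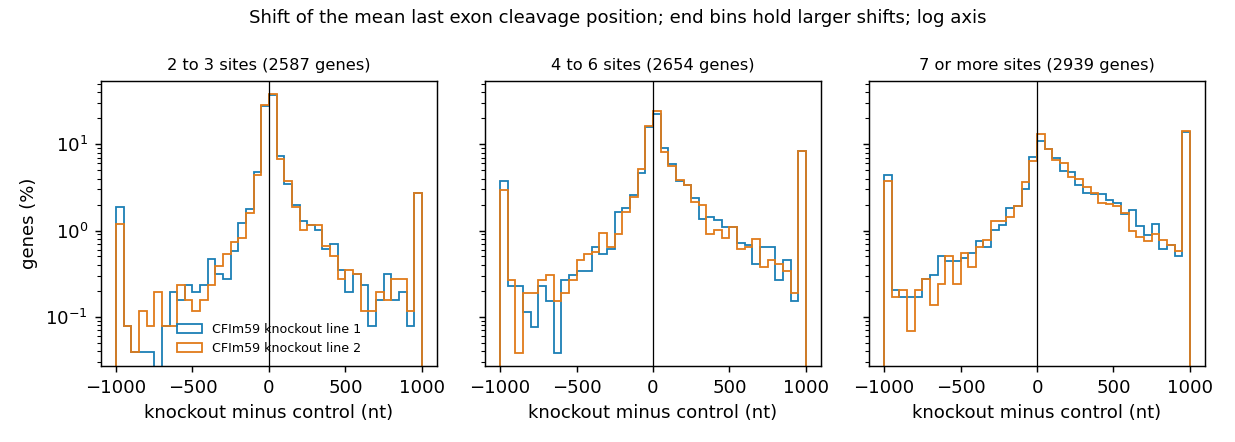
Distribution over genes of the knockout minus control difference in mean last exon cleavage position (x axis, nt; the end bins hold all larger differences) for CFIm59 knockout lines 1 and 2, split by the number of last exon sites with reads; the y axis is the percent of genes on a log scale. Both lines lean to positive values, most of all in the 2939 genes with 7 or more sites.

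Some shifts lay above the upper quartile over all genes, 206 nt, but far below the largest. PLAA moved from 1090 nt in the control to 2499 and 2357 nt, and CSTF2 from 412 nt to 1296 and 974 nt. The largest shifts joined last exon sites that lie far apart in the gene. Whether sites so far apart share an exon was not checked, so such a shift need not be a change in the length of a 3′ untranslated region. The mean position of TRIO, a guanine nucleotide exchange factor, moved from 95543 nt to 108244 and 109147 nt. That of WDR33, a CPSF subunit that contacts the AAUAAA signal, moved from 40455 nt to 55495 and 53326 nt. The largest shifts to upstream positions included BRWD1, from 69491 nt to 56684 and 51440 nt, and STK32C, from 25320 nt to 5088 and 10564 nt.

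Intron sites were tested 1 by 1 and as a class. Of 2441 tested intron sites, 85 lost share (3.48%) and 36 gained it (1.47%). Summed per gene against the last exon reads, intron sites took a median share of 14.5% in the control, against 16.7% and 16.2% in the lines over 3621 genes, with 32 genes called higher (0.884%) and 26 lower (0.718%). The balance of the class sum depended on the libraries, with 3 higher and 8 lower without CFIm68 knockout line 2, 15 and 16 without CFIm68 line 1, 10 and 15 without CFIm59 line 2, 15 and 13 without CFIm59 line 1, and 2 and 2 with DESeq2. For single intron sites DESeq2 left 2 gained and 5 lost, while leaving out CFIm59 knockout line 1 left 12 and 27, leaving out line 2 left 10 and 38, and leaving out CFIm68 knockout line 2 gave 68 gained.

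Among gained intron sites, SAE1, which forms the SUMO E1 enzyme with UBA2, had 4 of 358 reads at position 47679748 of chromosome 19 in the control and 121 of 403 and 167 of 527 in the lines. The share rose from 1.12% (interval 0.44 to 2.84) to 30.0% and 31.7% (log2 5.25, SE 0.57, adjusted p = 2.11e-12), and this call held under every alternative run. The SAE1 last exon site upstream of the other fell from 87.7% to 61.8% and 60.2%. FAM35A, which encodes a subunit of the shieldin complex of DNA repair, had no read at its intron site among 143 control reads, and the Wilson interval for that 0 reaches 2.62%. In the lines this site took 33.6% and 30.2% (adjusted p = 2.29e-09), on 43 and 42 reads. In KIAA1143 an intron site rose from 45.3% to 76.0% and 67.0% (adjusted p = 0.00775).

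Among lost intron sites, GTF2A1, which encodes the large subunits of the general transcription factor TFIIA, had 251 of 346 control reads at position 81669038 of chromosome 14. That share fell from 72.5% (interval 67.6 to 77.0) to 33.3% and 28.6% (adjusted p = 4.83e-06). Its downstream last exon site rose from 19.7% to 43.9% and 52.7%, while the gene total fell from 130 to 39.6 and 37.7 CPM. TIPIN, which works at the replication fork with TIMELESS, lost an intron site from 49.4% to 10.6% and 16.8% (adjusted p = 2.18e-06) and gained a middle last exon site from 2.74% to 19.1% and 23.6%. MID1, a microtubule-bound ubiquitin ligase, lost intron sites that had held 44.0% and 29.5% of its reads, and its most downstream site rose from 11.1% to 60.8% and 46.0% (adjusted p = 5.84e-09). The MID1 total fell from 389 to 47.4 and 41.4 CPM in the same lines. In GTF2A1 and MID1 the downstream site thus rose in share only, within a lower total, and its own level in CPM fell.

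SLIT2, a secreted axon guidance ligand, had 6 called sites. It lost 4 intron sites, the largest from 14.9% to 1.72% and 2.76% of its reads (adjusted p = 2.70e-06), and gained 2 last exon sites. Its most downstream site rose from 15.8% to 42.2% and 49.2% (log2 2.15, SE 0.36, adjusted p = 1.14e-05), on 114 of 720, 172 of 408 and 178 of 362 reads. The SLIT2 total was not called, at 271 CPM in the control, against 245 and 150 CPM in the lines.

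Upstream exon sites moved in few genes. Of 828 tested, 6 gained share (0.725%) and 4 lost it (0.483%), with 0 and 0 by DESeq2 and 1 and 1 by diffSpliceDGE. As a class none of 932 genes was called in either direction by edgeR or DESeq2, with 24 higher and 16 lower at an unadjusted p under 0.05 in edgeR. SRSF5, an SR splicing protein, lost an upstream exon site from 11.9% to 1.62% and 4.03% (adjusted p = 0.000687). NCAPD3, a condensin II subunit, gained one from 3.42% to 17.8% and 11.4% (adjusted p = 0.0154).

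Genes of 3′ end processing and splicing were themselves among the genes whose sites moved. Of 26 cleavage and polyadenylation factors other than CFIm, 1 rose and 4 fell in total reads, read against 6.98% of genes higher and 6.87% lower over all genes tested. CSTF2, the RNA-binding subunit of CstF, fell from 73.3 to 24.6 and 34.0 CPM (log2 -1.30, SE 0.28, adjusted p = 0.000652), whereas its paralogue CSTF2T rose from 27.8 to 52.2 and 48.1 CPM (adjusted p = 0.0498). PAPOLA, a poly(A) polymerase, fell from 281 to 145 and 155 CPM (adjusted p = 0.00604). XRN2, the exonuclease of transcription termination, and RPRD1A also fell. Of 69 tested sites in 21 of these genes, 2 gained and 6 lost share, beside 1.58% gained and 2.44% lost over all sites. The upstream site of CSTF2 fell from 79.5% to 46.3% and 54.9% (adjusted p = 0.00686), and that of WDR33 from 25.5% to 3.76% and 2.55% (adjusted p = 2.61e-06). FIP1L1, another CPSF subunit, lost its upstream last exon site from 59.1% to 24.8% and 34.2% (adjusted p = 0.0112). Without knockout line 2, 2 of the 26 factors were lower, and CSTF2T was not called by DESeq2 or when either line was left out. Of the CSTF2, WDR33 and FIP1L1 site calls, that of WDR33 alone also passed with DESeq2 and with diffSpliceDGE.

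None of 19 SR proteins, their kinases and importer, 18 hnRNP proteins or 14 proteins of the U1 snRNP and early splicing changed in total reads at an adjusted p under 0.05 by edgeR or DESeq2. At an unadjusted p under 0.05 in edgeR, 1 of the SR group, 5 hnRNP and 3 early splicing genes differed. Over all 14635 genes tested, 2038 were higher and 1963 lower at that unadjusted p. At an adjusted p under 0.05 in edgeR, 6.98% of all genes were higher and 6.87% lower. Sites called in these groups included the following. SRSF7, an SR protein, lost its main middle site from 77.8% to 54.9% and 54.7% (adjusted p = 0.00164) and gained sites downstream of it, the larger from 18.1% to 37.5% and 37.9%. HNRNPDL lost its main site from 86.7% to 69.0% and 73.1% and raised its most downstream one from 9.80% to 26.4% and 22.7% (adjusted p = 0.00193). SF3B1, a U2 snRNP subunit, raised its most downstream site from 2.67% to 11.7% and 13.6% (adjusted p = 5.53e-05). In the list of U1 snRNP and early splicing 4 of 47 tested sites gained and 3 lost, among SR proteins and partners 3 and 2 of 71, and among hnRNP proteins 4 and 4 of 93, beside 1.58% gained and 2.44% lost over all sites.

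Total reads per gene were called higher and lower in about equal numbers, but the changes were larger among the higher genes. The median log2 change was 1.60 among genes called higher and -1.10 among those called lower. At 2-fold or more, 861 were higher and 618 lower, and at 8-fold or more 226 and 76. The median control level was 9.02 CPM in the higher genes and 66.5 CPM in the lower ones. Of 14635 genes tested, 1021 were higher (6.98%) and 1005 lower (6.87%) in the CFIm59 knockout lines by edgeR, and 284 and 318 by DESeq2. With CFIm59 knockout line 1 left out 625 genes were lower, and with line 2 left out 611. The median log2 change over all genes was 0.02. In bulk libraries, a change in the number of cells of a type and a change of RNA per cell cannot be told apart.

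Large changes included genes with no reads in the control. Genes called higher included 103 with 0 control reads, and those called lower included 26 with 0 reads in both lines. Genes with 0 control reads passed the filter only through their reads in knockout libraries. A count of 0 in 1 control library is also easier to reach than 0 in both lines, so these numbers are not a like comparison. SLFN11, a restriction factor for replication under stress, had 0 reads in the control, against 107 and 159 in the lines, at least 57.7-fold higher against a floor of 3 reads per library. SOX11, a neural transcription factor, had 0 against 63 and 144 reads, at least 43.2-fold higher. PEG10, an imprinted gene derived from a retrotransposon, had 1 control read and 663 and 816 reads in the lines, a ratio of 964 with a counting interval of 173 to 38110. ZNF331, PLP2, OCIAD2, DPYSL3 and ECHDC2 were also at 0 in the control, and each had reads in both lines, from at least 34.2-fold higher in ECHDC2 to at least 95.5-fold higher in PLP2. In the other direction, MGST1, a microsomal glutathione transferase, fell from 238 reads to 3 and 3 (log2 -5.87, SE 0.42, adjusted p = 1.70e-15). PLTP, the phospholipid transfer protein, fell from 225 reads to 4 and 6 (log2 -5.08, SE 0.38, adjusted p = 6.95e-15). DDR2, a collagen receptor, fell from 101 reads to 0 and 5.

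Genes of the unfolded protein and integrated stress responses included 8 that fell and none that rose. In these responses XBP1 and ATF6 act on ER chaperone genes through the ER stress response element (ERSE), and ATF4 acts on amino acid genes through the C/EBP-ATF response element (CARE). The 8 were among 16 members, all tested, beside 6.87% of all genes called lower, and the list's median log2 change was -0.95 against 0.02 over all genes. XBP1 fell from 208 to 47.4 and 76.2 CPM (log2 -1.73, SE 0.25, adjusted p = 1.57e-06). ATF4 fell from 514 to 289 and 236 CPM (adjusted p = 0.00326), and ATF3 from 65.8 to 27.0 and 24.0 CPM (adjusted p = 0.000510). ASNS, asparagine synthetase, fell from 164 to 77.4 and 65.9 CPM (adjusted p = 0.000433), and PHGDH and PSAT1 of serine synthesis, VEGFA and HERPUD1 fell as well. The chaperone HSPA5 stood at 389 CPM against 373 and 355 CPM (adjusted p = 0.840). No site of this list was called, and DESeq2 called 4 members lower and none higher. Without knockout line 2 the count was 5.

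Promoter sequence was set beside these values because ERSE and CARE act on some genes of these responses. The list holds genes of these responses, so matches among its members say nothing about the changes seen here. The 250 bases before the annotated start of 15 of the 16 genes were searched on both strands, in RefSeq sequence of GRCh38.p14. ERSE was spelled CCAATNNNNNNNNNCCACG and occurred in 3 of these genes and in 0.0740% of all 35116 promoters. CARE was spelled TGATGNAAN and occurred in 4 and in 3.13%. Each match is shown 5′ to 3′ on the gene's strand with 20 bases on either side, the match in capitals, for genes that fell and, last, for HSPA5, whose level was not called.
XBP1, ERSE, chr22:28800583-28800641, minus strand: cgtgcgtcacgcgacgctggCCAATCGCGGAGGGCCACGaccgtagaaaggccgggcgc
ASNS, CARE, chr7:97872448-97872496, minus strand: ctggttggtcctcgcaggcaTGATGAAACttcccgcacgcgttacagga
ATF3, CARE, chr1:212565196-212565244, plus strand: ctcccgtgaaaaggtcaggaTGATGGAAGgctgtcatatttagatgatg
HERPUD1, CARE on the opposite strand, chr16:56931945-56931993, plus strand: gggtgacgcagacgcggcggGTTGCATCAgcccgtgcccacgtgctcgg
HSPA5, ERSE, chr9:125241371-125241429, minus strand: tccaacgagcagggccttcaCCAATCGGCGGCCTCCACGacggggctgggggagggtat
The match began 52 bases before the start in XBP1 and 66 in HSPA5, and 68 in ASNS, 191 in ATF3 and 177 in HERPUD1. HSP90B1 (ERSE) and CHAC1 (CARE) held the other matches. Of the ERSE genes XBP1 fell, and HSPA5 and HSP90B1 did not pass the test. Of the CARE genes ASNS, ATF3 and HERPUD1 fell, and CHAC1, at 6.02 CPM against 0.60 and 2.07 CPM, did not pass (adjusted p = 0.0888). A match is a description of the sequence only.

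Of 17 cholesterol genes tested, 6 fell and none rose, beside 6.87% of all genes called lower, and the list's median log2 change was -0.62. IDI1, isopentenyl diphosphate isomerase, fell from 117 to 31.8 and 18.6 CPM (log2 -2.25, SE 0.28, adjusted p = 3.10e-08). INSIG1, which retains the SREBP precursor in the ER, fell from 139 to 42.0 and 29.8 CPM (adjusted p = 4.57e-07). DHCR7, MSMO1 and SQLE fell as well. HMGCS1, which makes HMG-CoA, stood at 49.3 CPM against 47.4 and 41.4 CPM with no call (adjusted p = 0.771). The sterol response element, searched only as TCACNCCAC in the 250 bases before the start, was in 0.883% of all promoters. It was in 0 of the 12 list genes with a promoter entry, and the other members were not searched. With so few genes and so low a share, this does not tell the list apart from all promoters. DESeq2 called 2 members lower, and without knockout line 2 the count was 4.

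Of 17 p53 targets tested, 5 rose and none fell, beside 6.98% of all genes called higher, and the list's median log2 change was 0.65. TNFRSF10B, a death receptor for TRAIL, rose from 28.2 to 84.7 and 101 CPM (log2 1.72, SE 0.30, adjusted p = 3.13e-05). BBC3, which encodes the pro-apoptotic protein PUMA, rose from 29.0 to 83.4 and 58.8 CPM (adjusted p = 0.00325). BAX, BTG2 and FAS rose too. CDKN1A, the cell cycle inhibitor p21, stood at 45.5 CPM against 34.2 and 68.3 CPM, on either side of the control. The count was 3 without knockout line 2 and 2 with DESeq2.

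Markers of cell identity changed in both directions. Of 13 tested kidney progenitor genes, none rose and 4 fell, beside 6.87% of all genes called lower. The list's median log2 change was -0.02. It was -0.44 over 12 tested genes without CFIm59 line 1 and -0.27 over 13 without line 2. Without CFIm68 line 1 and 2 it was -0.21 and -0.22, over 12 tested genes each. The medians over 12 and 13 genes do not cover the same genes. DESeq2 called 2 members of the list lower. CITED1 fell from 23.3 to 1.80 and 3.31 CPM (log2 -3.09, SE 0.48, adjusted p = 4.98e-06) and SIX2, a nephron progenitor factor, from 21.1 to 3.002 and 4.556 CPM (adjusted p = 0.000114). HOXA11 and EYA1 fell too, whereas WT1 stood at 5.64 CPM against 6.60 and 7.87 CPM with no call. Of 11 tested fibroblast and matrix genes, COL4A1, COL4A2, FN1 and SPARC rose, beside 6.98% of all genes called higher. VIM fell, a call not made by DESeq2 or when either line was left out. COL4A2, a basement membrane collagen, rose from 41.4 to 129 and 103 CPM (adjusted p = 0.000157). The summed level of this list was 1584 CPM in the control, against 1314 and 1295 in the lines, with COL1A2, PDGFRB and THY1 at 0 in all 3 libraries. SPARC had 0 control reads and differed widely between the lines, at 10 and 153 reads. Blood cell genes summed to 11.7, 1.80 and 7.04 CPM with HBB and LYZ at 0, neuronal genes to 450, 671 and 671 CPM, and epithelial genes to 67.7, 116 and 67.5 CPM.

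The remaining lists had 6 or fewer called genes each, beside 6.98% higher and 6.87% lower over all genes. In insulin signalling, IRS2 rose from 8.65 to 56.4 and 59.6 CPM (log2 2.74, SE 0.37, adjusted p = 2.44e-07), AKT2 rose, a call lost with DESeq2, with no filter beyond 1 read and when either CFIm59 line was left out, and IRS4 fell from 32 reads to 0 in both lines, at least 7.91-fold. In axon guidance 4 of 26 rose (EFNB2, EPHA7, SEMA5A, SLIT3) and 2 fell (EFNA1, EFNB1), with 0 higher and 1 lower by DESeq2, and 2 and 2 without CFIm59 line 1. EFNA1 also moved its site use, with its most downstream site at 87.0% in the control, against 57.5% and 49.5% in the lines (adjusted p = 2.68e-05), though that site is listed under another gene too. Among 18 elongation genes, CDK12 and SUPT6H rose and none fell, and 1 was higher by DESeq2 or without CFIm59 line 2. Nuclear RNA decay had 2 higher (EXOSC5, PAPD7) and 2 lower (EXOSC1, EXOSC8) of 17, with 0 and 1 by DESeq2, and 1 and 1 when either CFIm59 line was left out. PCNA was the 1 of 27 cell cycle genes that fell, a call lost with DESeq2, with upper quartile scaling and when either CFIm59 line was left out. IFITM2 was the 1 of 11 interferon-stimulated genes that rose. None of 8 replication-dependent histone genes was called by edgeR or DESeq2. At an unadjusted p under 0.05 in edgeR, 1 of them differed, beside 2038 higher and 1963 lower of all 14635 genes tested.

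Gene totals also differed by chromosome, in the same direction in both lines for most. Genes on chromosome 19 had a median log2 difference from the control of 0.46 in line 1 and 0.47 in line 2, with 17.0% of them called higher. Genes on chromosome 9 stood at 0.56 and 0.22 (20.5% higher) and those on chromosome 22 at -0.34 and -0.33 (15.0% lower). Chromosome X stood at -0.23 and -0.22 (20.2% lower). Chromosome 10 stood at -0.32 and -0.08, and chromosome 18 had opposite signs, 0.19 and -0.16. Of the genes described above, BAX, BBC3, AKT2 and SAE1 lie on chromosome 19, XBP1 and ATF4 on chromosome 22, RXRA and TSC1 on chromosome 9, and CSTF2, IRS4, MID1 and CITED1 on chromosome X. IRS2, COL4A1, COL4A2 and EFNB2 lie on chromosome 13, with 11.6% of genes called higher and 8.91% lower. CDK12 and SUPT6H lie on chromosome 17 (8.44% higher, 2.96% lower). SEMA5A, SLIT3, SPARC and PAPD7 lie on chromosome 5 (11.5% higher, 2.77% lower). The part of these chromosome-wide differences in single gene totals was not tested. Shares of reads within a gene are taken against its own total.

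**Figure D4:**
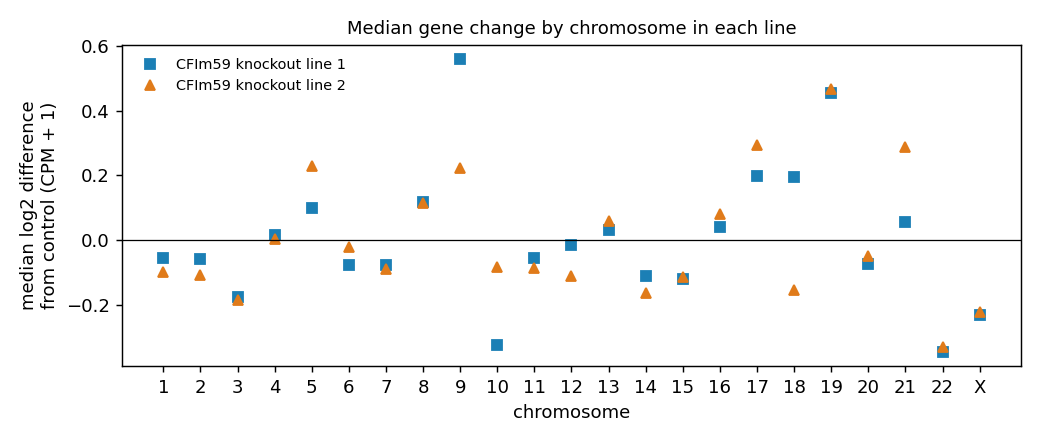
Median log2 difference in CPM plus 1 between each CFIm59 knockout line and the control (y axis) over the genes of each chromosome (x axis). Chromosomes 9, 17 and 19 lie above 0 in both lines and 3, 22 and X below.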

How the data were processed

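The authors deposited a table of raw counts, with a row per poly(A) site and a column per library. The submitters' processing notes name hg19, TopHat2 2.1.0 and deepTools 2.4, with no role for each, and the sources used here do not state how sites were called or internal priming handled. Of 290072 listings, 17824 repeats held 0 reads, so reads of a shared site stand under 1 gene. The table had 0 columns without a sample. The labels give the read length in 2 ways, and no molecular identifiers were used, so intervals cover counting error only.

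Counts were fitted with edgeR 4.0.16 in R 4.3.3 (quasi-likelihood test, 2-sided, Benjamini-Hochberg over all features tested, threshold 0.05), with all 5 libraries, for TMM-scaled gene sums after filterByExpr, and for each site against the rest of its gene (a term per library; site and rest averaging 5 reads or more, gene 20 or more). DESeq2 1.42.0, diffSpliceDGE, other minimums and leaving out libraries were the alternatives. Promoters were searched with Python 3.11.15. Each fit was tested on simulated data with a fixed dispersion and a 4-fold change in some features. For sites and classes the change was 4-fold in odds. It recovered 81.5% of changed gene sums (195 changed of 14056 run) and 30.1% of changed sites (183 of 19734). For intron and upstream exon class sums it recovered 24.3% (169 of 3339) and 62.4% (178 of 878). The share of changed features differed between the fits, which also moves the recovery, so these percentages do not rank the fits. Under these settings, many site and intron class changes of that size went uncalled. CPM are counts per 1000000 reads after TMM.

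Members, the 20 gene lists and tests were chosen with earlier results of these data known. The rule named the largest changes among called genes and sites with 20 or more (genes) or 50 or more (sites) reads and both lines on the same side, those with most reads, and up to 4 members of each list; the text gives some of them, and some genes the rule selects are left out. RPL28 and RPL31 were named for 3 or more called sites; partner sites, and list members beyond the rule or without a call, were added after their values were seen. Sequence around the sites was not analysed here.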

Additional observations from a re-analysis of the deposited data

How the results depend on the processing

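No paired analysis was possible because the control is 1 library with no replicate number; it could not be left out either. With DESeq2, gene sums gave 284 higher and 318 lower, last exon sites 6 gained and 5 lost, intron sites 2 and 5, upstream exon sites 0 and 0, and intron class sums 2 and 2. diffSpliceDGE gave 39 and 61, 6 and 28, and 1 and 1 for the sites. Other minimums also changed the number tested. A minimum of 1 read gave 7 and 7 of 78278, 3 and 8 of 106218, and 0 and 0 of 13230 for the sites. For intron class sums it gave 11 and 12 of 13115. Stricter minimums gave 21 and 34 of 355 intron sites, 1 gained of 141 upstream exon sites, and 850 longer and 143 shorter of 3199 genes. With sites averaging 5 or more reads, 1546 of 4609 genes were longer and 344 shorter. Leaving out genes with a shared site gave 55 lost of 1704 intron sites, 7 lost of 668 upstream exon sites and 14 lower of 2858 intron class sums. The control and CFIm59 knockout lines alone gave 471 gained last exon sites, 68 gained intron sites, and 10 gained and 10 lost upstream exon sites.

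Leaving out 1 knockout library at a time gave 611 to 1184 lower gene sums, 61 to 486 gained and 87 to 661 lost last exon sites, 10 to 68 gained and 27 to 117 lost intron sites, 1 to 10 gained and 0 to 10 lost upstream exon sites, 3 to 15 higher and 8 to 16 lower intron class sums, 0 to 5 upstream exon class sums each way, and up to 988 shorter genes. The fewest last exon calls came without CFIm59 knockout line 1 and the most without CFIm68 knockout line 2. CPSF7 changed sign with no filter beyond 1 read (-0.033) and ranged from -0.10 to 0.20 with 1 knockout library left out. Of the named genes and sites with a call and a DESeq2 value, 55 kept the call with DESeq2 and 88 did not. Sites and genes under the read minimums were not tested, and few reads limit the precision of low sites. The cause of these differences was not tested.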
